A study of Mus musculus with 2 samples.

Results

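Alveolar macrophages, the resident phagocytes of the air space, were picked out of 2 single-cell RNA sequencing libraries of mouse lung taken 1 week after bleomycin. A barcode was counted as a member if mitochondrial UMIs were under 20%, its detected genes numbered above 200 and below 5000, it had at least 3 of 7 gate genes detected (*Chil3*, *Marco*, *Ear1*, *Siglecf*, *Krt79*, *Fabp1* and *Plet1*), a UMI of *Fcer1g* or *Tyrobp*, no UMI of *Cd3e*, *Cd79a*, *Pecam1* or *Epcam*, and fewer than 3 of 5 cell cycle genes (*Mki67*, *Top2a*, *Birc5*, *Cenpf* and *Ube2c*). A UMI is a molecular tag that counts 1 captured transcript. The rule found 567 members among 45824 kept barcodes, 519 in the *Pclaf* WT library and 48 in the *Pclaf* KO library. Members were chosen by measured values, so the levels of the gate genes describe the choice and are no finding.

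Each library came from lungs of mice of 8 to 10 weeks given bleomycin (1.35 U/kg, as the series record gives it), a drug that injures the alveolar epithelium, and held cells sorted as Cd31-, Cd45- and Epcam+. The KO mice are described as carrying a germline loss of *Pclaf*, which encodes a PCNA-binding factor of proliferating cells. There was 1 library per genotype, no untreated library was used here, and the number of animals behind a library is not stated in the sources used here. In WT 98171818 UMIs fell on 30669 barcodes (median 2105) and in KO 111267567 UMIs on 17172 barcodes (median 5682), while the labels state that 16000 cells were loaded per group. The sort should have removed cells with Cd45, so the members are cells that the stated gate would have excluded, and their share gives no direction for the lung. With 1 library per genotype no test between genotypes was possible, and every interval below is an exact 95% interval that covers counting error only.

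Alveolar macrophages settle in the air space around birth, depend on GM-CSF, TGF-beta and the nuclear receptor PPARγ, and maintain themselves largely by self-renewal. They take up and break down surfactant lipid and protein, and their loss or immaturity leads to surfactant build-up. After injury, macrophages derived from monocytes enter the lung and can take on many of the same markers, so a marker gate does not tell resident from recruited cells.

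Before the members were compared, the libraries were checked against each other. They shared 163 barcode sequences, which is 0.949% of the KO and 0.531% of the WT barcodes, and no barcode was a member in both. The study's methods name male mice, but both libraries held barcodes with *Xist*, which is transcribed from the inactive X chromosome. Among WT members, 117 had UMIs of *Xist* and none of 4 Y-linked genes (*Ddx3y*, *Eif2s3y*, *Kdm5d* and *Uty*), 174 had the reverse, 19 had both and 209 neither. Among KO members these numbers were 14, 10, 4 and 20. Female and male cells thus stood in both member sets as far as these transcripts show, and the part of sex in any difference between the libraries was not tested.

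The members made up 1.72% of kept WT barcodes (1.58 to 1.87) and 0.307% of kept KO barcodes (0.226 to 0.407). Of the kept barcodes with a UMI of *Ptprc*, which encodes Cd45, they made up 3.12% in WT (373 of 11954, 2.82 to 3.45) and 6.01% in KO (31 of 516, 4.12 to 8.42), so the order of the libraries turned with the denominator. A member had a median of 5323 UMIs and 2133 genes in WT and 7404 UMIs and 2415 genes in KO, with 4.19% and 3.54% mitochondrial UMIs. Summed over members, the WT set held 2881458 UMIs and the KO set 320214, and KO values are the less precise throughout. At least 3 gate genes were detected in 1103 kept WT and 89 kept KO barcodes. Among those that failed 1 condition alone, *Pecam1* removed 196 and *Epcam* 135 in WT, and *Epcam* removed 22 and *Pecam1* 5 in KO. Scrublet, which scores barcodes by their likeness to simulated doublets, called 16 WT members (3.08%) and no KO member, against 7.24% and 2.87% of all kept barcodes.

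The gate genes lie on 7 chromosomal loci of GRCm38. *Chil3* (chr3:106147554-106167564) encodes a secreted chitinase-like protein and *Marco* (chr1:120474538-120505024) a scavenger receptor for particles and bacteria. *Ear1* (chr14:43818765-43875517) encodes an eosinophil-associated ribonuclease and *Siglecf* (chr7:43351341-43359531) a sialic acid-binding receptor used to sort these cells. *Krt79* (chr15:101929332-101940324) encodes a keratin, *Fabp1* (chr6:71199827-71205023) a fatty acid-binding protein and *Plet1* (chr9:50494525-50505482) a membrane protein found in several epithelia. *Ear1* shares long stretches of sequence with other genes of its family, and *Chil3* with *Chil4*, so reads may have been split or lost among them.

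The stretches around the start sites of these genes were read from RefSeq promoter windows of GRCm38.p6, since the members were chosen by these genes together. A window held 250 bases before the start and 50 after it, and matches were counted over the whole window. Of 31 genes looked up (the gate genes and 24 other identity genes of alveolar macrophages), 23 had a window. The 7 letters GAGGAAG, a core that PU.1 can bind (PU.1 is the factor that sets macrophage fate), were found on either strand in the windows of 3 of 7 gate genes (*Marco*, *Siglecf* and *Fabp1*) and 3 of 16 identity genes (*Ctsk*, *Mrc1* and *Flt1*), against 15.4% of all 27025 genes with a window. The 6 letters AGGTCA, the core of sites for nuclear receptors such as PPARγ, were in 2 of 7 gate genes (*Fabp1* and *Plet1*) and 4 of 16 identity genes (*Pparg*, *Olr1*, *F7* and *Ccl6*), against 18.1%. The palindrome TTGCGCAA, a strong C/EBP site, was in none of the 23 and in 0.207% of all. The motifs can share bases at their ends, as GAGGAAG and AGGTCA can share AG, and a match is a description of letters, not of binding. Shown are the 250 bases before the start of 3 gate genes, 5′ to 3′ on the gene's strand, with matches in capitals (*Marco* chr1:120505025-120505274 on the minus strand, *Siglecf* chr7:43351091-43351340 and *Plet1* chr9:50494275-50494524 on the plus strand). *Marco* holds GAGGAAG, *Siglecf* its reverse complement and *Plet1* the reverse complement of AGGTCA.
Marco: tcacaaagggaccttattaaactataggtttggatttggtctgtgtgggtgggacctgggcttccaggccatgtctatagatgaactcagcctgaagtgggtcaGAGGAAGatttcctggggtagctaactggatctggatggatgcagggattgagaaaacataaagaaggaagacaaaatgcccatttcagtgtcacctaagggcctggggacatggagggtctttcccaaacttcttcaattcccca
Siglecf: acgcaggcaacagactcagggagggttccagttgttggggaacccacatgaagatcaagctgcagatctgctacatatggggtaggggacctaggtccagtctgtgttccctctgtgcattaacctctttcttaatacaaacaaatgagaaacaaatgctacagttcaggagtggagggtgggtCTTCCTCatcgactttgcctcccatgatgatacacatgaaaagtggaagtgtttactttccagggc
Plet1: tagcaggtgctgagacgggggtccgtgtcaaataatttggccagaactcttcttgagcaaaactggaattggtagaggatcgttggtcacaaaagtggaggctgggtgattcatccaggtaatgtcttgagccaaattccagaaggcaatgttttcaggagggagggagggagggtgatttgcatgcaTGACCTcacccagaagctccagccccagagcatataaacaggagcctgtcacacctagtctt

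The gate genes described the chosen cells as follows. *Chil3* was at 6643 CPM (counts per 1000000 of the summed UMIs) in WT and 5668 in KO members, *Plet1* at 1006 and 778, and *Marco* at 507 and 397. *Ear1* was at 284 CPM in WT and 387 in KO, *Fabp1* at 180 and 334, *Krt79* at 124 and 197, and *Siglecf* at 76.7 and 71.8. In the other kept barcodes of each library the 7 genes together came to 540 CPM in WT and 76.5 in KO, against 8821 and 7832 in members. Thinned to 1000 UMIs per cell, which left 435 WT and 35 KO members, *Chil3* was found in 95.4% of WT and 94.3% of KO members (80.8 to 99.3 in KO). In barcodes with at least 2 of the T-cell genes *Cd3d*, *Cd3e*, *Cd3g* and *Trbc2*, which should lack *Chil3*, the shares were 5.96% of 2685 in WT and 0% of 126 in KO at the same depth. These T-cell barcodes were kept barcodes, but the other conditions on members, such as no UMI of *Epcam*, were not set on them.

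**Figure D1:**
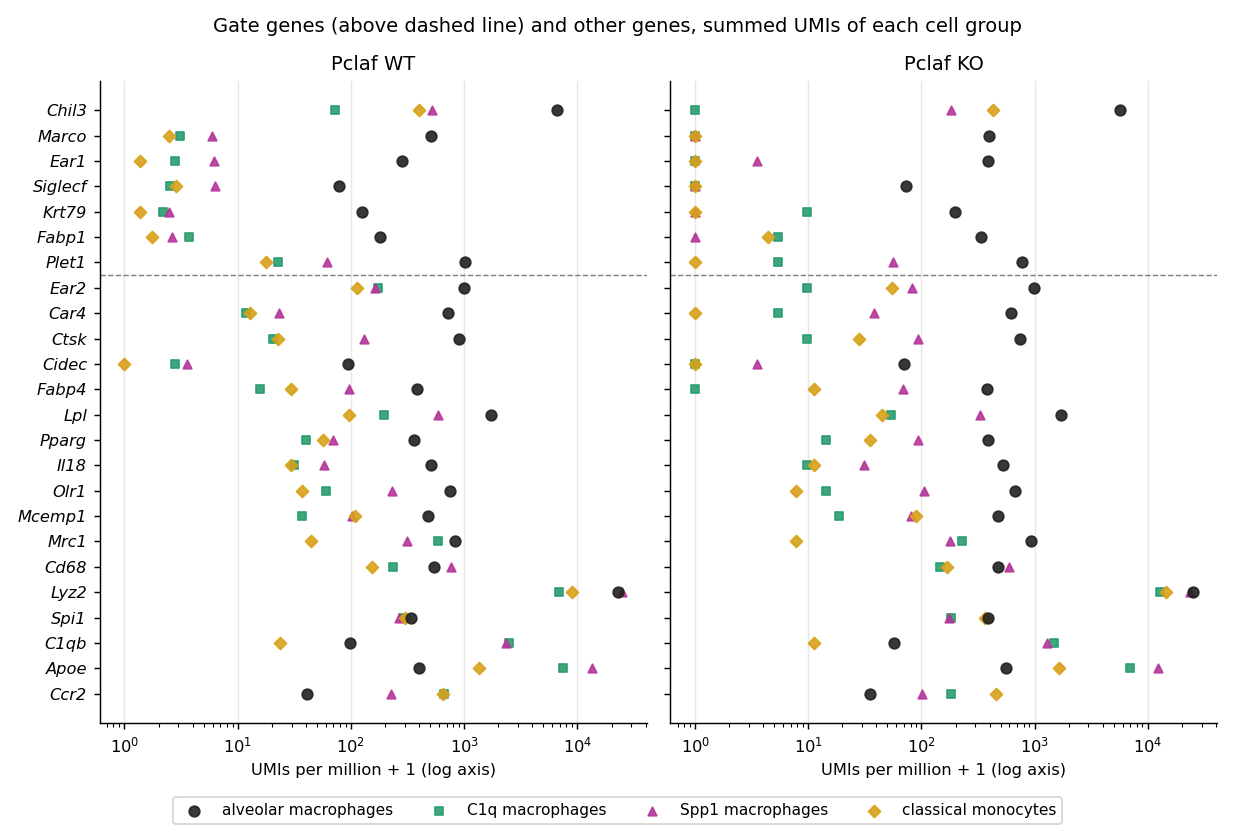
Summed UMIs as CPM plus 1 (log axis) of the 7 gate genes (above the dashed line) and 17 other genes in alveolar macrophages (black circles), C1q macrophages (green squares), Spp1 macrophages (purple triangles) and classical monocytes (yellow diamonds), with the WT library on the left and the KO library on the right. Identity genes such as *Car4* and *Il18* are highest in alveolar macrophages in both panels, and *Apoe* and *Ccr2* are lower there than in C1q macrophages.

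Members were also described by the number of gate genes found in them. In WT, 224 members had exactly 3 gate genes, 125 had 4, 102 had 5, 54 had 6 and 14 had all 7, and in KO these were 20, 8, 6, 8 and 6. Median depth went from 2942 UMIs at 3 gate genes to 10860 at 7 in WT and from 4702 to 10332 in KO, where it was 4120 at 4 and 4882 at 5, and the part of depth in this number was not tested. *Car4*, which the rule did not use, went from 533 to 1134 CPM between 3 and 7 gate genes in WT and from 388 to 603 in KO, where it was highest at 6 gate genes (855). *Apoe*, a lipid carrier abundant in recruited macrophages, went the other way, from 617 to 75.6 CPM in WT and from 1214 to 77.3 in KO, where 1 barcode held 72 of the 119 UMIs at 3 gate genes and the level there without it was 526. *C1qb*, a complement chain of interstitial macrophages, was at 133 CPM in WT members with 3 gate genes, 172 with 4 and 0 with 7, and in KO at 0 with 3, 461 with 4 and 0 with 7, where 1 barcode held all but 1 of the UMIs. Whether this RNA came from other cells or from members in another state cannot be told apart here.

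The barcodes just outside the threshold were set beside those just inside. In WT, 444 barcodes met every other condition but had exactly 2 gate genes, with a median of 1097 UMIs, and in KO 34, with 1052. Their *Apoe* level was 2559 CPM in WT, against 617 in members with 3 gate genes, and *S100a9*, a neutrophil gene, was at 1970 against 193 CPM. In KO *Apoe* was at 1137 CPM outside and 1214 inside (526 without its richest barcode), and *S100a9* at 0 in both. *Pparg* was at 121 CPM outside and 276 inside in WT, and *Car4* at 155 and 533. In KO, *Pparg* was at 170 CPM outside and 143 inside, and *Car4* at 278 and 388. *Sftpc*, the surfactant protein gene of alveolar type 2 cells, was at 26430 CPM outside and 16080 inside in KO, and at 1568 inside without the 1 barcode that held 1434 of its 1576 UMIs there.

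**Figure D2:**
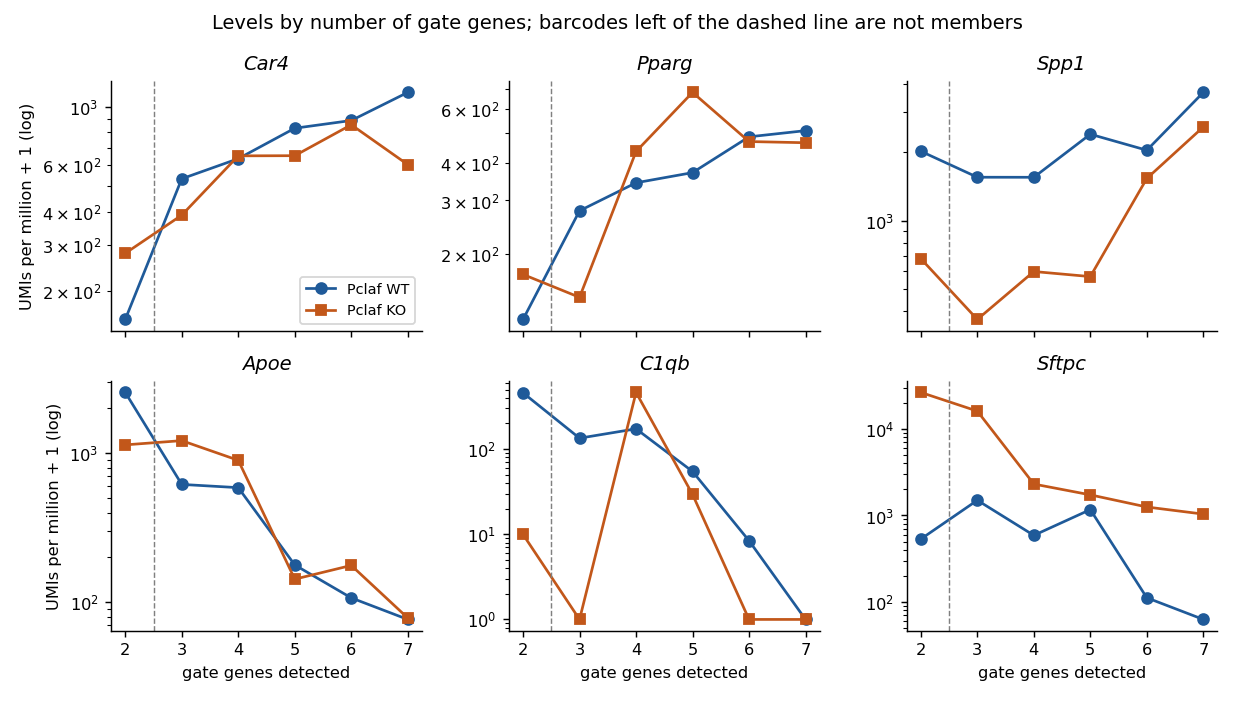
Level of 6 genes outside the gate (CPM plus 1, log axis) against the number of gate genes detected, in WT (blue circles) and KO (orange squares). Points left of the dashed line are barcodes with 2 gate genes, which are not members. *Car4* is higher and *Apoe* lower at 7 than at 3 gate genes in both libraries, and *Sftpc* is higher in KO at every number.

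Genes of alveolar macrophage identity that the rule did not use were next set beside 3 kinds of myeloid barcodes of the same library, all with fewer than 3 gate genes. These were C1q macrophages (2 or more C1q chains and no *Spp1* UMI, 1024 in WT and 65 in KO), Spp1 macrophages (3 or more *Spp1* UMIs, 1026 and 80), and classical monocytes (2 or more of *Ly6c2*, *Ccr2*, *Plac8* and *Vcan*, 700 and 55). Spp1 macrophages carry a tissue repair and fibrosis signature, and classical monocytes are the blood cells that enter injured lung. Each ratio was taken within a library, and a gene was counted as higher if it was at least 2-fold higher in both. Over C1q macrophages 19 of 22 identity genes were higher (all genes, 8.63% of 3534), over Spp1 macrophages 17 of 23 (all genes, 4.54% of 4599), and over classical monocytes 23 of 23 (all genes, 9.9% of 4598).

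*Car4*, a carbonic anhydrase on the surface of alveolar macrophages and capillary cells, was at 714 CPM in WT and 615 in KO members, and at most 37.4 CPM in any of the 3 other kinds. Its log2 ratio over Spp1 macrophages, the nearest kind, was 5.02 in WT and 4.04 in KO. *Ctsk*, a cysteine protease of the lysosome, was at 904 and 750 CPM, with log2 ratios over Spp1 macrophages of 2.79 and 3.02. *Il18*, an inflammasome cytokine, was at 506 and 525 CPM, against 56.5 and 29.9 in Spp1 macrophages and less in the other 2 kinds. *Ear2*, a further ribonuclease of the Ear family, was at 995 and 993 CPM with log2 ratios over all 3 kinds of at least 2.53. The tetraspanin *Cd9* was at 4094 and 3338 CPM, and over Spp1 macrophages its log2 ratio was 1.21 in WT and 1.42 in KO. *Mrc1*, the mannose receptor, was at 837 and 928 CPM and passed 2-fold over Spp1 macrophages and monocytes in both libraries, but not over C1q macrophages in WT (log2 0.50). The exception in direction was *Fabp5*, a fatty acid-binding protein, at 1746 and 1696 CPM in members and at 3801 and 4307 in Spp1 macrophages. *Ear10* had 1 UMI in WT members and 0 in KO, and no ratio was taken.

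Across the genome, 123 of 3403 genes that could be measured in all groups were at least 2-fold higher in members than in each of the 3 other kinds, in both libraries. The 123 include the gate genes *Chil3*, *Marco*, *Ear1*, *Krt79*, *Fabp1* and *Plet1*, whose place there follows from the rule and is no finding. Outside the gate, the 12 genes with the highest ratio were *Egfem1*, *Gal*, *Car4*, *Kcnip4*, *Flvcr2*, *Wfdc21*, *Il18*, *Cd2*, *Ms4a8a*, *Phgdh*, *Ctsk* and *Nrg4*. *Kcnip4*, a calcium-binding partner of potassium channels, was at 1958 CPM in WT and 1877 in KO members, with log2 ratios from 3.58 to 8.13 over the other kinds. *Wfdc21*, a small secreted protease inhibitor-like protein, was at 1071 and 1068 CPM with ratios from 3.31 to 8.30. *Gal*, the neuropeptide galanin, was at 106 CPM (305 UMIs) in WT and 144 (46 UMIs) in KO. *Phgdh*, the first enzyme of serine synthesis from glucose, was at 88.2 and 99.9 CPM, and *Flvcr2*, a choline transporter, at 141 and 122. *Nrg4*, a ligand of the ERBB receptors, was at 82.6 and 78.1 CPM. When members with 4 or more gate genes were used, 132 genes met the rule, of which 107 were among the 123, with gate genes again not left out.

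Genes of the GM-CSF and TGF-beta pathways and transcription factors were read from a list of 20 genes. The list also held *Car4*, which is neither a receptor nor a transcription factor and is among the higher genes in each count below. Against C1q macrophages 6 of 17 were higher and 4 lower (all genes, 8.63% and 7.27%). Against Spp1 macrophages 2 of 20 were higher and 1 lower (all genes, 4.54% and 3.28%). Against monocytes 8 of 20 were higher and 3 lower (all genes, 9.9% and 11%). The shared GM-CSF receptor chain *Csf2rb* was at 309 CPM in WT and 231 in KO members and was higher than in C1q macrophages and monocytes in both libraries, while the log2 ratio over Spp1 macrophages was 0.85 and 0.43. *Pparg*, the nuclear receptor that GM-CSF induces, was at 357 and 387 CPM, against at most 92.2 in the other kinds. *Bhlhe41*, a repressor needed for alveolar macrophage self-renewal, was at 184 and 109 CPM with log2 ratios of 5.26 and 5.02 over monocytes and of 1.06 and 0.33 over Spp1 macrophages. The receptor for M-CSF showed the reverse: *Csf1r* was at 88.5 and 81.2 CPM in members, against 511 and 273 in C1q macrophages and 243 and 189 in monocytes. *Spi1*, which encodes PU.1, was at 339 and 387 CPM in members.

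Genes of lipid and surfactant handling were read from a further list. Without *Fabp1*, which the rule used, 6 of 19 measured against Spp1 macrophages were higher and 2 lower, and 12 of 19 against monocytes were higher and none lower, against 4.54% and 9.9% of all genes higher and 3.28% and 11% lower. Against C1q macrophages 8 of 17 were higher and 1 lower (all genes, 8.63% and 7.27%). *Lpl*, lipoprotein lipase, was at 1707 CPM in WT and 1708 in KO members, with log2 ratios over Spp1 macrophages of 1.55 and 2.38 and over monocytes of 4.16 and 5.28. *Abcg1*, a cholesterol exporter whose loss leads to lipid-laden macrophages in the lung, was at 764 and 659 CPM, with 1.96 and 1.67 over Spp1 macrophages. *Olr1*, a receptor for oxidized lipoprotein, was at 747 and 675 CPM, with 1.69 and 2.69. *Fabp4*, a fatty acid-binding protein, was at 379 and 381 CPM, against 94.9 and 67.3 in Spp1 macrophages. *Nceh1*, which hydrolyses cholesterol esters, was at 385 and 400 CPM and higher than in all 3 kinds. *Plin2*, which coats lipid droplets, was at 916 and 896 CPM and close to Spp1 macrophages in KO (865 CPM). *Apoe* was at 396 and 553 CPM in members, against 13560 and 12390 in Spp1 macrophages.

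Among 18 uptake receptors, *Mertk*, which binds dying cells through bridging proteins, was at 768 CPM in WT and 637 in KO members and was higher than in C1q macrophages and monocytes. *Axl*, a receptor of the same family, was at 424 and 369 CPM and was higher than in monocytes. *Cd36*, a scavenger receptor for lipid, was at 296 and 334 CPM and passed 2-fold in both libraries over none of the 3 kinds. The hemoglobin receptor *Cd163* had no UMI in any member. Of 24 lysosomal genes 12 were higher and 1 lower than in monocytes (all genes, 9.9% and 11%), and 1 was higher and 7 lower than in Spp1 macrophages (all genes, 4.54% and 3.28%). *Ctsd*, an aspartic protease, was at 5093 and 3788 CPM in members and at 6839 and 5516 in Spp1 macrophages, and *Ctsb*, a cysteine protease, at 1044 and 859 against 3547 and 2420.

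Genes of antigen presentation were lower in members than in the other kinds in several cases. Of the genes of MHC class II and its partners, 6 of 7 were lower than in C1q macrophages (all genes, 7.27%), 4 of 8 than in Spp1 macrophages (all genes, 3.28%) and 4 of 8 than in monocytes (all genes, 11%), and none was higher. *H2-Aa* was at 394 CPM in WT and 197 in KO members, against 4725 and 2418 in C1q macrophages. The invariant chain *Cd74* was at 1024 and 709 CPM, against 10770 and 6795. Of 9 interstitial macrophage genes outside the rule for C1q macrophages 8 were lower than in these, and of 4 monocyte genes 2 were lower and 1 higher (all genes, 7.27% lower and 8.63% higher). *Ccr2*, the receptor that brings monocytes into tissue, was at 40.3 CPM (116 UMIs) and 34.4 (11 UMIs), and its level in the monocyte barcodes, which were chosen in part by it, is no finding. *Folr2* and *Cd163*, which mark some interstitial macrophages, were at 0 in members of both libraries, which allows up to 1.04 CPM in WT and 9.37 in KO.

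Cytokine genes were mixed. *Ccl6*, a chemokine abundant in these cells, was at 4375 CPM in WT and 3410 in KO members and was higher than in C1q macrophages and monocytes. *Il1b*, an inflammatory cytokine, was at 304 and 175 CPM, below classical monocytes (784 and 585). *Il1a* was at 92.3 and 84.3 CPM, with log2 ratios over monocytes of 5.16 and 4.64. *Nos2* and *Ccl24* had no UMI in members. *Gdf15*, a stress cytokine and p53 target, was at 204 and 147 CPM and higher than in all 3 kinds, with log2 ratios over Spp1 macrophages of 1.02 and 4.29. *Cdkn1a*, a p53 target that arrests the cell cycle, was at 437 and 306 CPM, with ratios of 1.21 and 0.90. Of 20 interferon-stimulated genes 4 could be measured between the libraries, and 9 of 10 measured against monocytes were lower in members (all genes, 11%), as were 2 of 3 against C1q macrophages (all genes, 7.27%) and none of 4 against Spp1 macrophages.

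Members varied among themselves, as seen after thinning each to 1000 UMIs. The variance over the mean was close to that of counting for most genes, with a median of 1.08 over 1608 WT genes and 0.994 over 1791 KO genes. The 15 genes with the highest ratio in WT were *Iglc2*, *Sftpc*, *Mgp*, *Fth1*, *Gm42418*, *Eln*, *Col3a1*, *Ftl1*, *Ccl5*, *Lyz2*, *Malat1*, *Spp1*, *S100a8*, *Tmsb4x* and *Cst3*. Several are markers of other cells: *Iglc2* of plasma cells, *Sftpc* of alveolar type 2 cells, *Mgp*, *Eln* and *Col3a1* of mesenchymal cells, *Ccl5* of lymphocytes and *S100a8* of neutrophils. *Iglc2* had a ratio of 120 and was found in 0.460% of WT members, with 121 UMIs in the highest. *Sftpc* had a ratio of 89.0 in WT and 144 in KO. Of macrophage genes, the ferritin gene *Fth1* ranged up to 242 UMIs per 1000 in WT with a median of 19 and a ratio of 21.2, against 4.39 in KO, where the highest had 42. *Lyz2*, lysozyme, had a median of 18 and a highest value of 84 in WT.

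*Spp1*, osteopontin, was on that list and is a gene of macrophage state. At 1000 UMIs it was found in 49.4% of WT members (215 of 435) and 25.7% of KO members (9 of 35), with a highest value of 46 UMIs in WT and 7 in KO. In T-cell barcodes it was found in 8.53% in WT and 1.59% in KO. Without thinning, 72.6% of WT and 60.4% of KO members had a *Spp1* UMI. WT members with *Spp1* at that depth had a mean of 0.972 UMIs of *Car4*, against 0.464 in those without. *Cd63*, a tetraspanin of late endosomes, had means of 0.721 and 0.382, and *Ctsd* 5.60 and 3.91. *Mmp12*, macrophage elastase, had 17 UMIs in members with *Spp1* and 2 in those without. *Chil3* had means of 6.65 and 5.86 and *Pparg* 0.270 and 0.345. In KO the 9 members with *Spp1* and the 26 without had means of 0.889 and 0.423 for *Car4*, 5.89 and 3.35 for *Ctsd* and 5.89 and 6.12 for *Chil3*. Other genes lay the other way than in WT there, with means of 0.222 and 0.462 for *Cd63* and 1 and 0.192 for *Pparg*, and 0 and 3 UMIs of *Mmp12*.

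**Figure D3:**
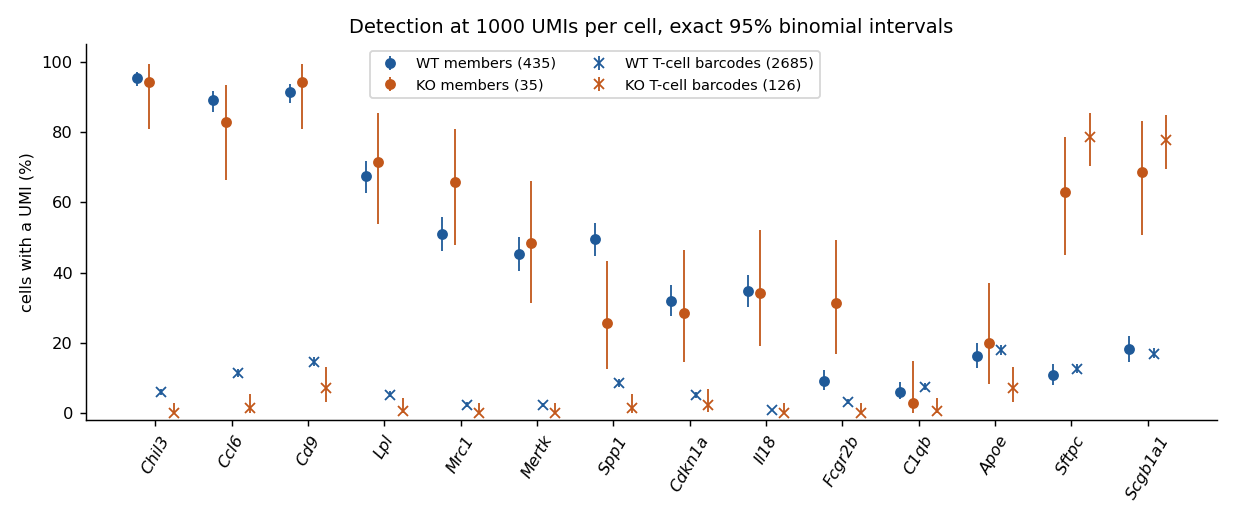
Percent of cells with a UMI of 14 genes after thinning to 1000 UMIs per cell, with exact 95% binomial intervals, for members (circles) and T-cell barcodes (crosses) of WT (blue) and KO (orange). *Chil3*, *Ccl6*, *Cd9* and *Lpl* are found in most members and few T-cell barcodes. *Sftpc* and *Scgb1a1* are at least as frequent in T-cell barcodes as in members within each library, but only members were held to no UMI of *Epcam*.

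The question of the design, how loss of *Pclaf* bears on the lung after injury, was put to the members by setting the KO sum beside the WT sum. *Pclaf* itself had 69 UMIs in 33 WT members (23.9 CPM) and 5 UMIs in 1 KO member (15.6 CPM), too few in KO to check the label. Over all kept barcodes it was found in 1261 of 30187 in WT (39.3 CPM) and 254 of 15637 in KO (5.19 CPM), so it was lower in the library labelled KO but not absent from it. Of 15865 genes with a UMI, 4594 were deep enough to enter, that is, the KO set was expected to hold at least 10 UMIs. The median log2 ratio of KO over WT over these was -0.10. At least 2-fold apart were 238 genes (5.18%), 86 of them higher in KO (1.87%) and 152 lower (3.31%). Most of them were lower in KO (36.1% higher), but 59.2% were higher without the condition on *Epcam*, 60.9% with at least 20 expected UMIs and 68.1% with 1 UMI in each library, and their number went from 20 of 493 with members thinned to 2642 with 1 UMI in each library.

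None of the 23 genes of alveolar macrophage identity that entered passed 2-fold between the libraries, which at 5.18% of all genes is near the background, and their median log2 ratio was -0.21. None of the 7 gate genes passed either, but members of both libraries were chosen by these genes, so nothing is read from it. *Lpl* was at 1707 CPM in WT and 1708 in KO (log2 0.00, -0.13 to 0.13), *Ear2* at 995 and 993 (0.00, -0.17 to 0.16), and *Wfdc21* at 1071 and 1068 (0.00, -0.17 to 0.16). The identity genes farthest apart were *Bhlhe41* (log2 -0.75, -1.29 to -0.26) and *Flt1* (-0.70, -1.24 to -0.19), which encodes a VEGF receptor. Among gate genes *Fabp1* was the farthest apart (0.89, 0.58 to 1.19), then *Krt79* (0.66, 0.25 to 1.05) and *Ear1* (0.45, 0.16 to 0.72), while *Chil3* was at -0.23 (-0.30 to -0.16). For *Ear1* the value was 0.09 without the richest member of each library. How far 2 libraries of the same genotype differ was not measured.

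**Figure D4:**
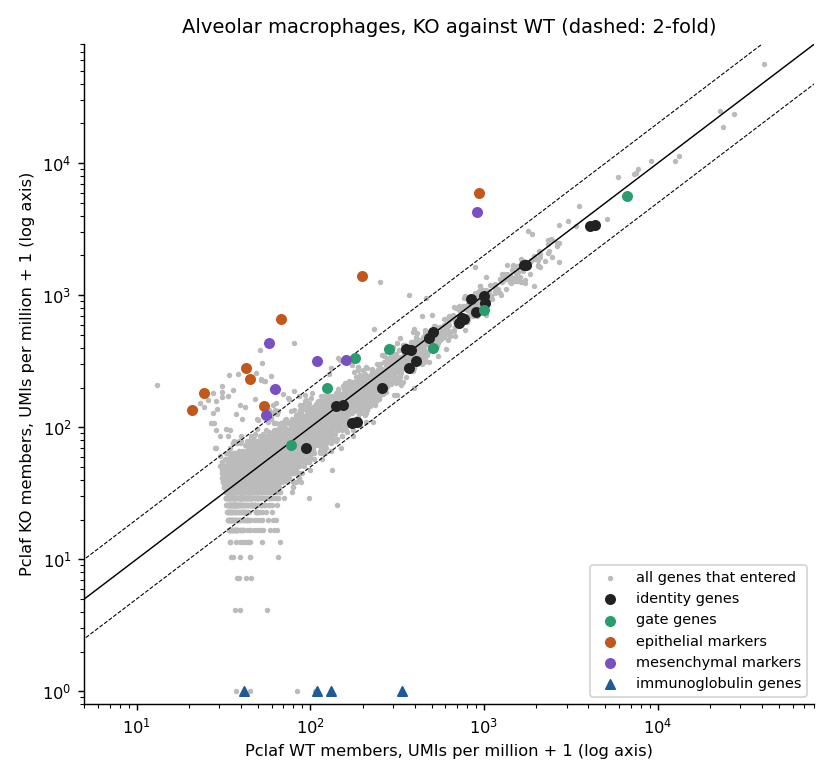
Summed UMIs as CPM plus 1 in KO members against WT members (log axes) for the 4594 genes that entered (grey), with the line of equal level (solid) and 2-fold lines (dashed). Identity (black) and gate genes (green) lie between the dashed lines, epithelial (orange) and mesenchymal markers (purple) above, and 4 immunoglobulin genes (blue triangles) at 0 UMIs in KO.

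For lists of 4 to 23 genes of macrophage function a share of 5.18% comes to about 1 gene or fewer, so a count of 0 is near the background. None passed among 19 genes of the GM-CSF, TGF-beta and transcription factor list (median log2 -0.09, *Car4* included), 17 uptake receptors (0.01, the gate genes *Marco* and *Siglecf* included), 23 lysosomal genes (-0.05) or 11 pan-macrophage genes (-0.17). The same held for 13 genes of the Spp1 macrophage list (-0.19), 13 of oxidative stress and iron (-0.42), 8 p53 targets (-0.15), 4 interferon-stimulated genes (-0.21) and 4 replication genes (-0.38). Within them *Psap*, which encodes saposins, was at 2707 CPM in WT and 1789 in KO (log2 -0.60, -0.72 to -0.47), and *Grn*, progranulin, at 600 and 394 (-0.61, -0.88 to -0.35). Both were also lower in KO in the other kept barcodes (*Psap* 1091 and 161 CPM, *Grn* 250 and 64.9). The same held in Spp1 macrophages (*Psap* 4473 and 3312 CPM, *Grn* 974 and 521). *Prdx1*, a peroxidase, was at 1731 and 1230 CPM (-0.49) and *Fth1* at 23930 and 18810 (-0.35, -0.39 to -0.31). *Spp1* was at 1947 CPM in WT and 1174 in KO (-0.73, -0.88 to -0.58), and at -1.01 without the richest member of each library, which held 369 of 5609 UMIs in WT and 100 of 376 in KO. In the other kept barcodes *Spp1* was at 1067 and 90.7 CPM, and in T-cell barcodes at 571 and 21.9. *Fcgr2b*, the inhibitory Fc receptor, was at 115 and 172 CPM (0.58, 0.14 to 1.00) and was found in 9.20% of WT and 31.4% of KO members at 1000 UMIs, and in 3.28% and 0% of T-cell barcodes. Without thinning the shares were 33.0% and 43.8%, and without the richest member of each library the log2 ratio was 0.43 (-0.05 to 0.88).

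A few genes of the remaining lists passed, against 1.87% of all genes higher and 3.31% lower in KO. Of 13 immediate early and stress genes, *Jun* (132 and 281 CPM, log2 1.10) and *Hspa1a* (73.6 and 166, 1.17, but 0.98 without the richest member of each library) were higher in KO, while *Fos* was at -0.14 and *Junb* at -0.05. In classical monocytes *Jun* was at 371 CPM in WT and 618.5 in KO, and *Hspa1a* at 383 and 639. *Hspa1a* was at 304.5 and 233.4 CPM in C1q macrophages, 121.7 and 114.6 in Spp1 macrophages, and 115 and 220.4 in T-cell barcodes. In the other kept barcodes *Jun* was at 388 and 452 CPM, but *Hspa1a* at 186 and 167. These genes respond to tissue dissociation, and its part was not tested. Of 19 lipid genes, the gate gene *Fabp1* included, *Scd1* was higher (33.0 and 250 CPM, 2.92), with 48 of 80 KO UMIs in 1 barcode. *Scd1* encodes a fatty acid desaturase that alveolar type 2 cells also use. Of 8 MHC class II genes *H2-Aa* was lower (394 and 197 CPM, interval -1.39 to -0.63), and it was also lower in KO in the other kept barcodes (1322 and 478 CPM), in C1q macrophages (4725 and 2418) and in Spp1 macrophages (1717 and 797). *Ccl17*, a chemokine that attracts T cells, was the lower gene among 16 cytokine genes (median -0.23) and stood with *Il13ra1*, a chain of the IL-13 receptor, among 5 genes of alternative activation. *Ccl17* had 183 and 5 UMIs (-2.02, -3.66 to -0.78) and *Il13ra1* 244 and 13 (-1.06, -1.99 to -0.26), but with members thinned to 1000 UMIs the ratio of *Il13ra1* turned to 0.41. In the other kept barcodes *Ccl17* was at 139 CPM in WT and 4.86 in KO, but in Spp1 macrophages at 110 and 137. Of 6 interstitial macrophage genes *C1qa* (279 and 9 UMIs, -1.78, but 0.27 with members thinned) and *C1qc* (189 and 4, -2.39) were lower, with *C1qa* at 478 and 17.1 CPM in the other kept barcodes and at 2489 and 1346 in Spp1 macrophages, and of 5 monocyte genes *Plac8* (160 and 1, -4.15) and *S100a4* (504 and 27, -1.05). In the other kept barcodes *Plac8* was at 256 and 28.8 CPM and *S100a4* at 608 and 35.8. In T-cell barcodes *Plac8* was at 173.5 and 102 CPM, while *S100a4* went the other way (815 and 1111 CPM). None of 4 nuclear-retained RNAs passed 2-fold. *Malat1* was at 5898 and 7829 CPM (0.41, 0.35 to 0.47, and 0.18 without the richest member of each library) and *Neat1* at 537 and 409 (-0.39), and a further one is *Xist*, which follows sex.

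Ranked by the bound of the interval nearest 0, the 12 genes highest in KO over WT members were *C7*, *Sftpa1*, *Scgb1a1*, *Inmt*, *Sftpc*, *Mfap4*, *Scd1*, *Slc34a2*, *Cxcl15*, *Npnt*, *Serping1* and *Ogn*. Of these, *Sftpa1*, *Scgb1a1*, *Sftpc*, *Slc34a2* and *Cxcl15* were on the epithelial and *Inmt* on the mesenchymal marker list. *Sftpc* was at 932 CPM in WT and 5921 in KO members (log2 2.67, 2.58 to 2.75), *Sftpa1*, a surfactant protein, at 67.3 and 662 (3.30, 3.01 to 3.59), and *Scgb1a1*, the secretoglobin of club cells, at 199 and 1396 (2.81, 2.63 to 2.99). *C7*, a complement factor made by fibroblasts, was at 12.2 and 209 CPM (4.11, 3.50 to 4.74), and *Inmt*, a methyltransferase of lung fibroblasts, at 56.9 and 437 (2.94, 2.61 to 3.28).

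The epithelial markers among them were also higher in KO outside the members. In T-cell barcodes *Sftpc* was at 1944 CPM in WT and 10980 in KO, and in all other kept barcodes at 6252 and 86980. *Sftpa1* was at 275 and 1969 CPM in T-cell barcodes, and *Scgb1a1* at 3502 and 4731. Every KO member had UMIs of *Sftpc* and of *Scgb1a1*, against 42.4% and 57.2% of WT members. At 1000 UMIs *Sftpc* was found in 62.9% of KO members (and 78.6% of KO T-cell barcodes), against 10.8% of WT members (and 12.6% of WT T-cell barcodes). The share in members was thus not above that in T-cell barcodes in either library. The sets are unlike, however: members had no UMI of *Epcam* by rule, while T-cell barcodes had *Epcam* at 19.6 CPM in WT and 63.8 in KO. The mesenchymal genes *Mgp*, *C7*, *Inmt* and *Col3a1* were also higher in KO in the other kept barcodes and in T-cell barcodes, by differing amounts. In Spp1 macrophages *C7* was lower in KO (48.9 and 32.4 CPM). *Mgp* was at 4059 CPM in WT and 5589 in KO in all other kept barcodes, *C7* at 91.7 and 140, and *Inmt* at 295 and 401, while in T-cell barcodes these were 1245 and 3963 for *Mgp*, 23.0 and 76.5 for *C7*, and 100.3 and 169 for *Inmt*. *Col3a1* was at 109 CPM in WT and 318 in KO members, at 513 and 598 in the other kept barcodes and at 133 and 607 in T-cell barcodes.

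Part of the difference lay in single barcodes. A KO member with 7472 UMIs and 3 gate genes held 1434 of the 1896 *Sftpc* UMIs of all KO members, 151 of 212 of *Sftpa1*, 47 of 58 of *Slc34a2* and 64 of 89 of *Cxcl15*, and the next richest member held 35 of *Sftpc*. A WT member with 7657 UMIs and 3 gate genes held 1138 of 2684 *Sftpc* UMIs. Another KO member, with 14804 UMIs, held 41 of 67 of *C7*, 55 of 123 of *Mfap4*, 50 of 81 of *Npnt* and 28 of 58 of *Ogn*. Scrublet called neither KO barcode. Without the richest barcode of each gene in each library the log2 ratio was 1.46 for *Sftpc*, 2.36 for *Sftpa1* and 2.59 for *Inmt*, while *Scgb1a1*, whose richest KO barcode held 38 of 447 UMIs, stayed at 2.77 and *C7* at 4.48. Without the condition on *Epcam*, the ratio of *Scgb1a1* turned to -1.79. By comparison, over the 23 identity genes that entered the richest KO member held from 6.36% (*Cd9*) to 27.1% (*Fabp4*) of a gene's UMIs with a median of 10.9%, and over the 7 gate genes from 8.82% (*Chil3*) to 25.8% (*Ear1*). In WT the highest was 4.31% (*Fabp4*).

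**Figure D5:**
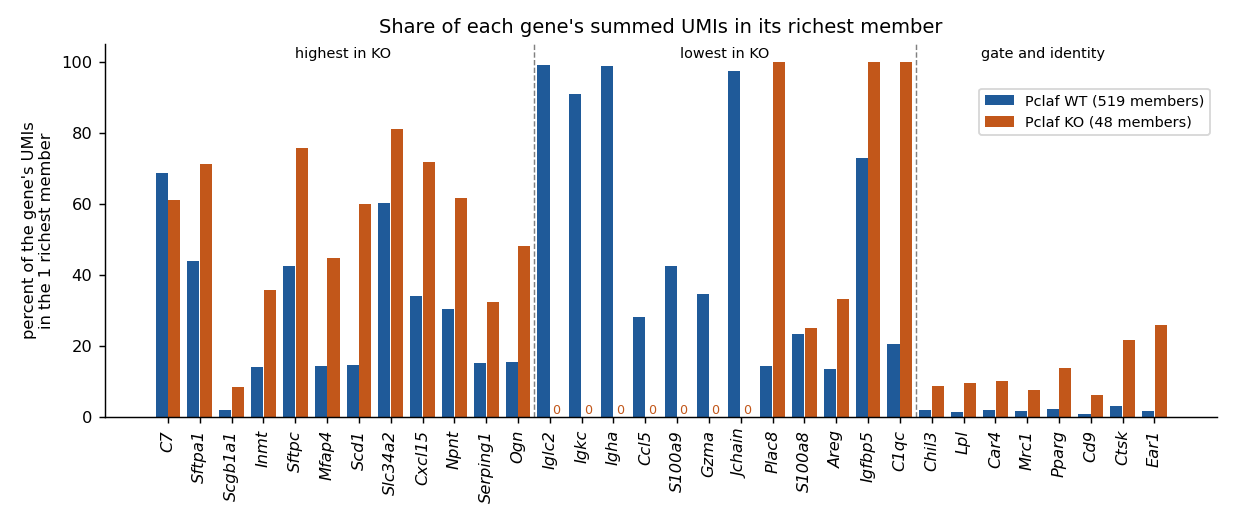
Percent of a gene's UMIs held by the richest member, in WT (blue bars, 519 members) and KO (orange bars, 48 members), for the 12 genes highest in KO, the 12 lowest and 8 gate and identity genes, with an orange 0 where KO had no UMI. In WT 1 member holds 958 of 967 UMIs of *Iglc2*, and in KO 1 member holds 1434 of 1896 UMIs of *Sftpc*, while the highest share among the 8 genes on the right is 25.8% (*Ear1* in KO).

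The genes lowest in KO had few or no KO UMIs. The first 12 were *Iglc2*, *Igkc*, *Igha*, *Ccl5*, *S100a9*, *Gzma*, *Jchain*, *Plac8*, *S100a8*, *Areg*, *Igfbp5* and *C1qc*. The immunoglobulin genes rested on 1 WT member with 8661 UMIs and 5 gate genes, which held 958 of 967 UMIs of *Iglc2*, 341 of 375 of *Igkc*, 308 of 312 of *Igha* and 114 of 117 of *Jchain*, and KO had 0 of each. Immunoglobulin genes also share sequence among themselves. *Ccl5*, a lymphocyte chemokine, had 303 UMIs in 26 WT members and 0 in KO, *Gzma*, a granzyme of NK and T cells, 127 in 12 members and 0, and *S100a9* 240 in 22 members and 0. *S100a8* had 410 and 8 UMIs (log2 -2.51, -3.73 to -1.52). *Areg*, an epidermal growth factor family ligand, had 185 UMIs in 61 WT members and 3 in 3 KO members (-2.78, -5.07 to -1.21). In the other kept barcodes 10 of these 12 genes were also lower in KO, such as *Ccl5* (326 and 14.5 CPM), *S100a9* (802 and 28.3) and *Plac8* (256 and 28.8), while *Areg* (23.6 and 104 CPM) and *Igfbp5* (109.8 and 186) went the opposite way. In T-cell barcodes *Ccl5* was at 803 and 789 CPM and *S100a9* at 205 and 164.

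KO values of MHC class II and complement genes rested on 1 barcode as well. A KO member with 8959 UMIs and 4 gate genes held 17 of 18 UMIs of *C1qb*, 8 of 9 of *C1qa*, all 4 of *C1qc*, all 23 of *Mmp12*, 38 of 63 of *H2-Aa*, 74 of 89 of *H2-Ab1* and 144 of 227 of *Cd74*. Without the richest barcode of each gene the log2 ratio was -4.69 for *C1qb* (-10.00 to -2.20, with 1 KO UMI), -2.23 for *H2-Aa*, -2.97 for *H2-Ab1* and -1.90 for *Cd74*. *Mmp12* was at 42.7 CPM in WT and 71.8 in KO with that barcode and at 31.3 and 0 without.

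Marker lists of other cell types were summed in the members of each library. Of 14 epithelial markers all had UMIs in both, their sum was 1444 CPM in WT and 9166 in KO, *Sftpc* was the most abundant, and all 8 that entered were at least 2-fold higher in KO (all genes, 1.87%), with a median log2 ratio of 2.75. Of 7 mesenchymal markers all had UMIs in both, the sum was 1382 and 5684 CPM, *Mgp* was the most abundant (912 and 4285 CPM), and all 6 that entered were higher (median 1.60). Of 7 endothelial markers all had UMIs in both, the sum was 221 and 103 CPM, *Calcrl* was the most abundant, and of 2 that entered 1 was lower (all genes, 3.31%). The 7 T and NK markers summed to 80.5 CPM in WT, led by *Gzma*, and to 0 in KO, and the 5 B cell markers to 149 CPM, led by *Igkc*, and 0. The 6 neutrophil markers summed to 258 and 62.5 CPM, led by *S100a8* in WT and by *Cxcr2* in KO, with *S100a9*, *Retnlg* and *Mmp9* at 0 in KO. Dendritic markers summed to 25.7 and 6.25 CPM with 5 of 7 at 0 in KO, and erythroid markers to 38.9 and 6.25 with 3 of 5 at 0. In the other kept barcodes the same lists summed to 16720 CPM in WT and 162300 in KO for epithelial, 6349 and 8199 for mesenchymal, 3583 and 239 for endothelial, 418 and 21.8 for T and NK, 1192 and 36.1 for B cell and 1610 and 63.0 for neutrophil markers. The direction was the same as in members for each of these lists, but the size was not: the mesenchymal sum was 1.29-fold higher in KO in the other kept barcodes and 4.11-fold higher in members, while it went from 1944 to 6741 CPM in T-cell barcodes and from 3933 to 10490 in C1q macrophages. Their part in the differences between WT and KO members was not tested.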

How the data were processed

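Single-cell RNA was measured in 1 *Pclaf* WT and 1 *Pclaf* KO library. The files the authors deposited hold raw UMI counts, not normalized, of 31053 genes in each barcode. The headers of the matrices name cellranger 5.0.0, while the submitters' processing notes name Cell Ranger 3.1.0 and STAR, with GRCm38. Each file belongs to 1 sample.

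Members were taken by the rule given above, and UMIs were summed over the members of a library and divided by their total (CPM). For log2 ratios the interval is the exact conditional one of a pair of Poisson counts, with 0.5 UMIs added to both sums where one was 0, and shares the Clopper-Pearson interval. The floor for a count of 0 was 3 counts. A gene entered a comparison if the smaller set was expected to hold 10 UMIs or more at the pooled rate (31.2 CPM between the libraries), and at least 2-fold counted as apart. Libraries of 1 per genotype allow no p-value. The ratios were tested on simulated counts. Work was done in Python 3.11.15 with NumPy 2.4.6, SciPy 1.17.1 and pandas 2.3.3, and doublets were called by Scrublet in scanpy 1.11.5 (expected rate 0.1) but left in. Gene positions came from GENCODE for GRCm38 and promoter windows from RefSeq.

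Named were *Pclaf*, the gate genes, the 3 most abundant and the 2 farthest apart of each list, the 12 highest and 12 lowest genes, the 12 highest over the other myeloid kinds (unnamed models and mitochondrial and ribosomal protein genes left out), the 15 most variable and the leading marker of each other cell type. Other list genes were named after their values were seen. The members and the lists were chosen with earlier results of these data known. 1 gene named in the lists was not analysed here. The alternatives without *Pecam1*, with 1000 UMIs per member and without the richest barcode were added after seeing the data.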

Additional observations from a re-analysis of the deposited data

How the results depend on the processing

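With 1 library per genotype, leaving out a replicate was not possible. No paired analysis was possible because each genotype had 1 library and the results come from no test. The member share in WT (main 1.72%) was 0.977% with 4 or more gate genes, 1.00% without *Chil3* in the gate, 1.43% gated after thinning to 1000 UMIs, 2.17% without the condition on *Epcam*, 0.991% with no *Sftpc* UMI allowed, 2.37% without the condition on *Pecam1* and 1.44% with 1000 or more UMIs. In KO (main 0.307%) it was 0.179%, 0.186%, 0.110%, 0.448% and 0% (no member, so no gene values) under the first 5 of these and 0.224% under the last. The number of genes at least 2-fold apart (main 238 of 4594) was 142 with 4 or more gate genes, 144 without *Chil3*, 150 gated after thinning, 559 without *Epcam*, 20 of 493 with members thinned, 624 with 5 and 64 with 20 expected UMIs, 2642 with 1 UMI in each library and 407 without the richest barcode of each gene, where removing 1 of 48 KO members takes a larger part than 1 WT member (56 higher and 351 lower). The share of these genes that was higher in KO (main 36.1%) was 18.3% with 4 or more gate genes, 18.1% without *Chil3*, 12% gated after thinning, 59.2% without *Epcam*, 20% with members thinned, 60.9% with 20 expected UMIs and 68.1% with 1 UMI in each library. Without *Epcam* the list medians (log2) moved to -0.50 for gate, -0.56 for identity, -0.57 for pan-macrophage, -0.49 for GM-CSF, -0.17 for lipid, -0.43 for uptake, -0.34 for lysosome and 4.27 for epithelial genes. Gated after thinning they were -0.35 for GM-CSF, -1.29 for MHC class II, 0.22 for alternative activation, -0.11 for oxidative stress and -1.80 for replication genes. With members thinned the median of uptake receptors was -0.28, and without *Chil3* that of epithelial genes 0.77. Values that turned were *C1qa* (0.27) and *Il13ra1* (0.41) with members thinned, and *Igfbp5* (2.12) and *Scgb1a1* (-1.79) without *Epcam*. The log2 values of *Igha* and *Jchain* were positive as well (1.73 each gated after thinning, 0.0353 and 0.40 without the richest barcode). Without that barcode *Igha* was at 1.39 CPM and *Jchain* at 1.04 in WT, and both at 0 in KO. The sign there rests on the 0.5 UMIs added to both sums and gives no direction. *Mmp12* turned from 0.75 to an upper bound of -1.37 without its richest barcode, with no KO UMI left. The cause of the other turns was not tested. Of the genes higher than in all other myeloid kinds, gate genes included, 127 were found without Scrublet doublets and 130 with 1000 or more UMIs, both holding all 123. TMM factors of edgeR 4.0.16 in R 4.3.3 (0.990 in WT, 1.01 in KO), 500 genes, 10% mitochondrial UMIs, no upper limit on genes and removal of doublets moved no list median beyond its counting range and left the number of genes apart within 1.5 times.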
